A study of Homo sapiens and Mus musculus with 14 samples.

Results

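Accessible regions of 2 SMARCAL1 knockout clones of MDA-MB-436 were compared directly with each other. MDA-MB-436 is an established human breast adenocarcinoma cell line. Every peak on the list of clone 1 or clone 2 was taken, with no condition on the control cells, which made 39537 and 34572 peaks of the 138915 on the 3 deposited MDA-MB-436 lists. A peak counted as found in the other clone where at least 1 bp overlapped, and as absent otherwise. Since the lists differ in length, the comparison was repeated with the 34572 top-scoring clone 1 peaks, called the equal-length list below.

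Both clones carry a SMARCAL1 knockout, and no further treatment is labelled for either. The clone 1 list was merged by the authors from 3 libraries labelled batch 1, and the clone 2 list from 2 libraries labelled batch 2. Cells labelled as control, in 3 libraries of batch 1, serve here only as a reference. Each clone is a single line, so differences between the clones cannot be told apart from the difference in batch or from those between any 2 clones of this line. How the knockouts were made is not given in the sources used here. Because each group is 1 merged list, there is no replicate spread and no test of any difference. The exact binomial (Clopper-Pearson) 95% intervals given for shares cover counting error only.

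SMARCAL1 is an ATP-driven motor of the SNF2 family that is recruited to stalled replication forks by the single-strand binding protein RPA and rewinds unpaired DNA there. The title of the series links it to innate immune signalling and to PD-L1, the product of CD274 that restrains T cells. ATAC-seq uses a transposase to cut and tag DNA that nucleosomes leave exposed. In most cell types the strongest and most constant ATAC-seq peaks lie at CpG-rich promoters, whereas peaks between genes and in introns vary more from one cell population to the next.

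The peaks of the clones differ in width and score. Clone 1 peaks had a median width of 453 bp and covered 22.3 Mb, and clone 2 peaks had a median width of 200 bp and covered 8.37 Mb. The score was deposited by the authors and is read from its values as −log10 p, and it is used only to rank peaks within a list. The most frequent background pileup recovered from the scores was 1.91 in clone 1 and 0.985 in clone 2, so the same pileup of 11 scored 5.27 in clone 1 and 8.06 in clone 2. Read totals are not used here.

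The promoters of the genes that led each clone's own list are shown first. For each clone they belong to the first 3 of the genes with the highest-scoring promoter peak and no peak of the other clone within 3000 bp of their start, among genes with a start in the promoter table. RTL8C, the next after C11orf97 in clone 2, has none there and is not shown. The 250 bases before the annotated start are given on the gene's strand, from RefSeq on GRCh38.p14, whose chromosome coordinates are those of hg38. Capitals mark bases under a peak of the named clone. The clone 1 promoters lie within 7 kb of each other on chromosome 7.
LOC124901652, clone 1, chr7:63760219-63760468, plus strand: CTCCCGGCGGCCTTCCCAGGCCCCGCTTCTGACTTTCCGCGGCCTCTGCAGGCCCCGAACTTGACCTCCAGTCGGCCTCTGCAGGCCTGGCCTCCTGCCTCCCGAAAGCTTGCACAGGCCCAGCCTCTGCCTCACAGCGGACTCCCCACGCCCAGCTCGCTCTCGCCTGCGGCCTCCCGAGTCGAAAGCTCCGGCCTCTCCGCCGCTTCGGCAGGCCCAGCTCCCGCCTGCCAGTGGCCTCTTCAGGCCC
LOC124901647, clone 1, chr7:63758544-63758793, plus strand: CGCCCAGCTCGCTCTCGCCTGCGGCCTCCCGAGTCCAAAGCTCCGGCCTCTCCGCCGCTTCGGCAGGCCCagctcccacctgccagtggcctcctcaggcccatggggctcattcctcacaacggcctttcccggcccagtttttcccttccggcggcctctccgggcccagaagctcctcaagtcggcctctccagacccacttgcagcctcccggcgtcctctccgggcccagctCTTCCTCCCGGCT
LOC124901650, clone 1, chr7:63753889-63754138, plus strand: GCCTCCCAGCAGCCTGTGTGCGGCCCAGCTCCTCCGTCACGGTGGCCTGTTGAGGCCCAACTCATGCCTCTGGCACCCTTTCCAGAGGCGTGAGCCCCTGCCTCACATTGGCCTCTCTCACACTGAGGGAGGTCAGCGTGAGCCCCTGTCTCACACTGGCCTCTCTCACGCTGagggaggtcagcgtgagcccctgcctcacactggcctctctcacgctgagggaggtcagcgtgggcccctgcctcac
C11orf97, clone 2, chr11:94512211-94512460, plus strand: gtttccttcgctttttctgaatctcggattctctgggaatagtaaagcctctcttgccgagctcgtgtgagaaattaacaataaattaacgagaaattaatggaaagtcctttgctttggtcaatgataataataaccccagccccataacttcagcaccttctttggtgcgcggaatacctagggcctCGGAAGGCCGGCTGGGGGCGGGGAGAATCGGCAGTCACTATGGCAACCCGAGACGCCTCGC
IL21R, clone 2, chr16:27427021-27427270, plus strand: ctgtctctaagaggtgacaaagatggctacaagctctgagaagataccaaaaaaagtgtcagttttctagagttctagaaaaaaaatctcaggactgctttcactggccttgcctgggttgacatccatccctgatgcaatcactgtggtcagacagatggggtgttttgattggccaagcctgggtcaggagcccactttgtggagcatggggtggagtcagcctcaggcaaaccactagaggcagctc
SMIM10L2A, clone 2, chrX:135421694-135421943, plus strand: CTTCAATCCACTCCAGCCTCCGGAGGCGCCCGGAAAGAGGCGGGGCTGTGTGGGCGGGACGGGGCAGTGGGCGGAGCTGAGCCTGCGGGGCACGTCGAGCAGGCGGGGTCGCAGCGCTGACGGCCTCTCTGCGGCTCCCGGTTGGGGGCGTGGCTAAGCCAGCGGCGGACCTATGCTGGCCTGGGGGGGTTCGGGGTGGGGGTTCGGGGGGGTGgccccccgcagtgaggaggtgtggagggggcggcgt
The LOC124901652 and LOC124901647 sequences shared 38 distinct 20-base words. The IL21R sequence holds no capital because its peak, chr16:27426518-27426692, lies upstream of the 250 bases shown.

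Promoters of 3 regulators with known roles in breast or dividing cells are given as well. They were chosen after their values were seen. XBP1 encodes the transcription factor of the unfolded protein response, GINS2 a subunit of the replicative helicase, and GATA3 the factor that specifies luminal breast epithelium.
XBP1, clone 1, chr22:28800570-28800819, minus strand: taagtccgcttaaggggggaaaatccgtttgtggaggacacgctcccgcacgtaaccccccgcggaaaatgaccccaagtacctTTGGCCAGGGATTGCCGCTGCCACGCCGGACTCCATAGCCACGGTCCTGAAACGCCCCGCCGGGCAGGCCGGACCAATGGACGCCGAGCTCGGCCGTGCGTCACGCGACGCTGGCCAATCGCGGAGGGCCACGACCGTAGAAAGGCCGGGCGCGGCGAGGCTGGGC
GINS2, clone 1, chr16:85688955-85689204, minus strand: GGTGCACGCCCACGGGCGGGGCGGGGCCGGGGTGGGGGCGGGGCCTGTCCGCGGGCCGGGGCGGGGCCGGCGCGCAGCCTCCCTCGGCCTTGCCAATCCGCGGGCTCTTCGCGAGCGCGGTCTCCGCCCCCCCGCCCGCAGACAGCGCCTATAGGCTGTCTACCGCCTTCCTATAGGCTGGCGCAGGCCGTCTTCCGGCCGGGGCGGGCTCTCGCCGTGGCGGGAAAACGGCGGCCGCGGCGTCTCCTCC
GATA3, clone 2, chr10:8053391-8053640, plus strand: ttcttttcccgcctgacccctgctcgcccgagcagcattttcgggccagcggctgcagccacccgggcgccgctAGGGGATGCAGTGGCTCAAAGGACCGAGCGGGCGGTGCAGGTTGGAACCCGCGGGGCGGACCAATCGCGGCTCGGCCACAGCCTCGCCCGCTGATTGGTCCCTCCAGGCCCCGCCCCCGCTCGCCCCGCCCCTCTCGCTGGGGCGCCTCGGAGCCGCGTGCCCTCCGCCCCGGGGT
The GINS2 sequence was 79.2% G or C and held 7 matches to the GC box GGGCGG on either strand. The GATA3 sequence held 5 such matches and 2 matches to CCAAT, and the XBP1 sequence held none of the former and 2 of the latter.

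Of the clone 1 peaks, 18456 (46.7%, interval 46.2 to 47.2%) were absent in clone 2. Of the clone 2 peaks, 10874 (31.5%, interval 31.0 to 31.9%) were absent in clone 1. With lists of equal length the shares were 42.3% (14616 peaks) and 34.9% (12074 peaks), so clone 1 had the larger share of its own peaks in both versions. The equal-length list ended at a score of 5.22 and left out 4965 clone 1 peaks. Among peaks above the median score of their own list, 24.0% of clone 1 and 18.7% of clone 2 peaks were absent in the other clone. When at least 50% of a peak had to be covered, 77.3% of the wider clone 1 peaks and 32.0% of clone 2 peaks were absent.

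Peaks of 1 clone only were narrower and had lower scores than the peaks that the clones shared. Clone 1 peaks absent in clone 2 had a median width of 313 bp and a median score of 5.57, against 615 bp and 7.06 for those found. Clone 2 peaks absent in clone 1 had a median width of 147 bp and a median score of 9.59, against 238 bp and 12.0. A score with more digits than a single call carries is a recognisable mean over several calls. The calls can outnumber the libraries, as for the clone 2 score of 14.74833333 at CHD8. Such a mean therefore does not show that a peak was called in more than 1 library. Such means made up 13.6% of clone 1 peaks absent in clone 2 and 49.0% of those found, and 18.8% and 39.9% in clone 2. Among peaks with a recognisable mean, an alternative chosen after seeing the data, 19.6% of clone 1 and 17.8% of clone 2 peaks were absent in the other clone. The control list, of the same batch as clone 1, held 37.4% of the clone 1 peaks absent in clone 2 and 70.6% of the clone 2 peaks absent in clone 1. It held 97.2% and 97.3% of the shared peaks of either list.

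The share of peaks found in the other clone was higher at high than at low scores in both lists. In the lowest score decile, 20.9% of clone 1 peaks and 48.8% of clone 2 peaks were found in the other clone. In the highest decile the shares were 95.7% and 98.5%. From the eighth decile upwards the lists were within 3 percentage points of each other, and the gap between them lay in the lower deciles.

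**Figure D1:**
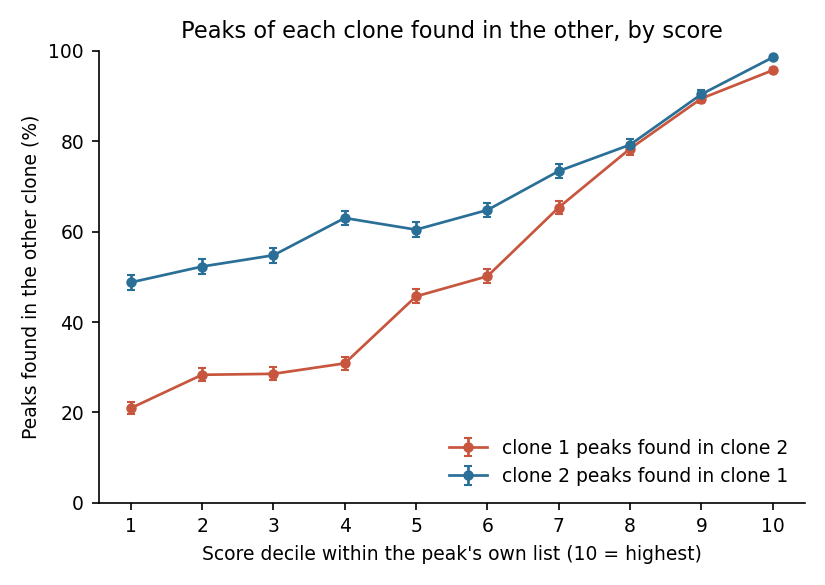
Share of peaks of each clone found in the other clone (%, y axis) by decile of score within the peak's own list (x axis, 10 highest). Points are shares, bars exact binomial 95% intervals for counting error only. Clone 1 goes from 20.9% in the lowest to 95.7% in the highest decile and clone 2 from 48.8% to 98.5%.

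The share of peaks found in 1 clone only differed by position relative to genes. A promoter peak here lies within 1000 bp of an annotated start of a protein-coding gene or, for genes without a start in the promoter table, of either end of the gene. In clone 1, 26.1% of promoter peaks were absent in clone 2, against 55.4% of other peaks in gene bodies and 51.3% of those between genes. In clone 2, 9.73% of promoter peaks were absent in clone 1, against 40.7% in gene bodies and 40.6% between genes. Promoter peaks were also wider. Their median width was 867 bp in clone 1, against 366 bp in gene bodies and 392 bp between genes. In clone 2 these widths were 252, 182 and 189 bp. The part of width in these shares was not tested.

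Of the peaks absent in the other clone, 14.3% in clone 1 and 9.09% in clone 2 were promoter peaks, a gap of 5.23 percentage points (normal-approximation 95% interval 4.49 to 5.97, counting error only). Of the shared peaks, 35.5% and 38.7% were. The sign of the gap depended on peak width. With every peak set to 200 bp around its centre, the promoter shares of absent peaks were 19.7% in clone 1 and 26.5% in clone 2. The gap was then -6.79 points, so no order of the clones is read from it.

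Gene-dense and gene-poor neighbourhoods differed in which clone kept its own peaks. Where no protein-coding gene started within 250 kb, 46.7% of clone 1 peaks and 43.9% of clone 2 peaks were absent in the other clone. Where 15 or more genes started within that distance, the shares were 55.0% and 19.0%. With 1 to 4 and 5 to 14 genes nearby the clone 2 shares were 32.8% and 23.0%, so that the share was lower at each step of gene density. The clone 1 share was lowest, at 42.97%, with 1 to 4 genes nearby. With each score decile weighted equally, the ends of the range were 45.8% and 51.3% in clone 1 and 47.5% and 15.4% in clone 2. Promoter peaks were not set apart here, and their part in these shares was not tested.

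The share of clone 1-only peaks was highest on chromosomes 22, 17 and 19. Chromosome 22 held 350 clone 1 and 137 clone 2 peaks, and 78.0% of the clone 1 peaks there were absent in clone 2. On chromosome 17 the counts were 841 and 507, with 62.2% of clone 1 peaks absent, and on chromosome 19 they were 875 and 475, with 60.0% absent. The lowest clone 1 shares were 36.5% on chromosome 3 and 36.7% on chromosome 18.

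Chromosome X ran the other way, with 1438 clone 1 and 1638 clone 2 peaks. Its share of clone 2 peaks absent in clone 1, 41.0% (interval 38.6 to 43.5%), was the highest of the chromosomes, and the lowest was 18.3% on chromosome 19. Chromosomes 3, 4 and 18 also held more clone 2 than clone 1 peaks. Gain or loss of chromosome segments in either clone was not tested.

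**Figure D2:**
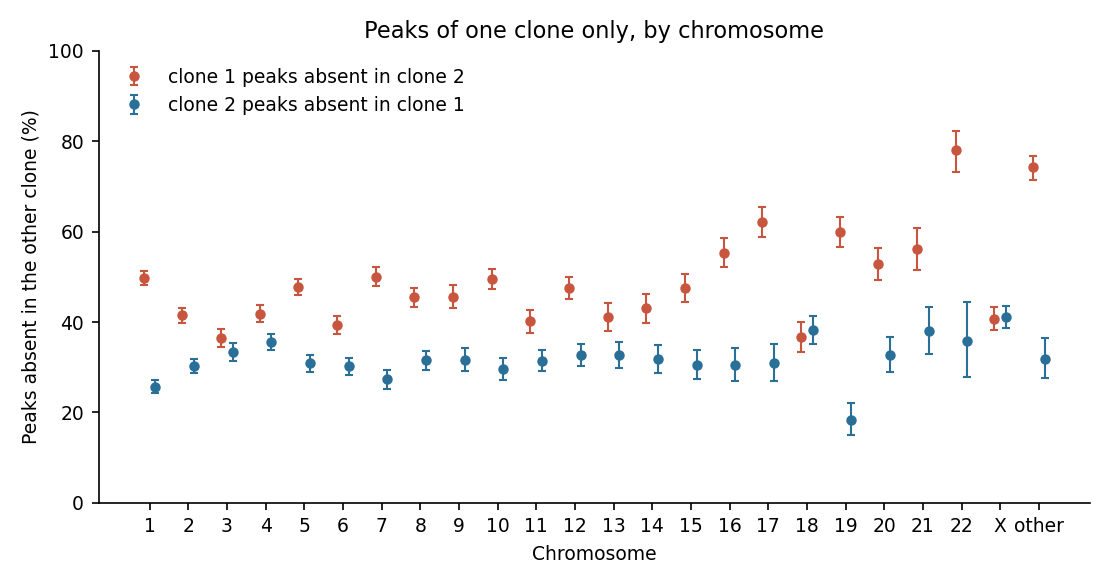
Share of peaks absent in the other clone (%, y axis) on each chromosome (x axis, with other contigs last). Points are shares for clone 1 and clone 2, and bars are exact binomial 95% intervals for counting error only. Clone 1 stands highest on chromosome 22 (78.0%), and the clones have nearly the same share on chromosomes 18 and X.

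Windows of 5 Mb showed where this was concentrated. Over the 439 windows with at least 40 clone 1 peaks, the share absent in clone 2 ran from 10.4% to 92.5% with a median of 46.7%. The highest window, chr17:35000001-40000000, held 40 clone 1, 7 clone 2 and 74 control peaks. Its neighbour, chr17:40000001-45000000, held 50 clone 1 and 11 clone 2 peaks, with 90.0% of the former absent in clone 2. In the lowest window, chr14:85000001-90000000, 48 clone 1 peaks faced 67 clone 2 peaks.

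For clone 2 the 438 windows with at least 40 of its peaks ran from 7.69% to 69.0% absent in clone 1, with a median of 31.1%. The highest value was shared by adjoining windows of the long arm of the X chromosome. The window chrX:110000001-115000000 held 42 clone 2 and 9 clone 1 peaks, and chrX:115000001-120000000 held 42 and 13. A window on chromosome 4, chr4:90000001-95000000, held 54 clone 2 and 17 clone 1 peaks and contains CCSER1.

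Uninterrupted runs of peaks of 1 clone were also listed. A run is a stretch of consecutive peaks, over both lists, that all belong to 1 clone and overlap nothing in the other. The median run held 1 peak in either clone. The clone 1 run with the most peaks, chr17:35764165-39401984, held 30 peaks over 3.64 Mb without a single clone 2 peak, and 19 of them were also on the control list. It spans 67 protein-coding genes, among them the chemokine cluster with CCL5, CCL3 and CCL4, the fatty acid synthesis gene ACACA and the ribosomal protein genes RPL19 and RPL23, and 7 of the 67 had a clone 1 promoter peak. The next runs held 28 peaks each, over 969 kb on chromosome 5 around IRX2, a homeobox gene, and over 663 kb on chromosome 7. Of those peaks, 2 and 12 were on the control list.

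The clone 2 run with the most peaks, chrX:125295459-129522508, held 17 peaks over 4.23 Mb, and 12 of them were on the control list. It spans 6 protein-coding genes, including DCAF12L1, DCAF12L2 and SMARCA1, the last an ISWI-family nucleosome remodeller. SMARCA1 was not open in clone 2 only. Its promoter had a peak in both clones (6.07 in clone 1 and 14.3 in clone 2), and the clone 1 peak lay just past the end of the run. The next runs held 11 peaks over 486 kb in FAT3, a giant cadherin gene, and 10 peaks over 965 kb in CCSER1.

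**Figure D3:**
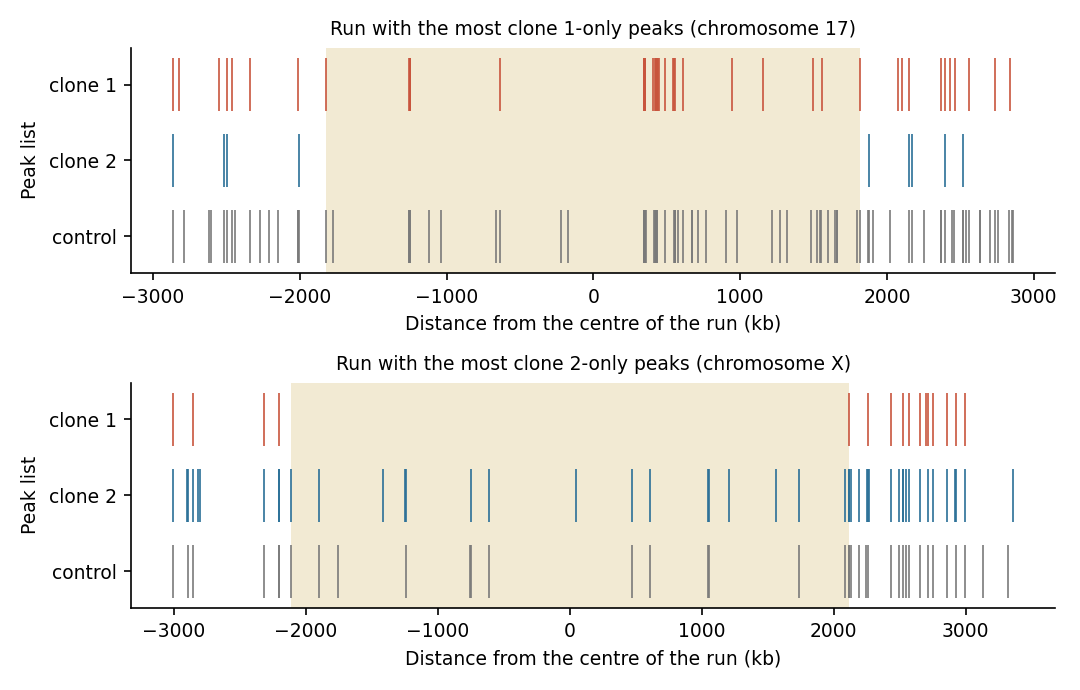
Peaks of clone 1, clone 2 and control (rows) around the clone 1 run with the most peaks on chromosome 17 (top) and the clone 2 run with the most peaks on chromosome X (bottom). Each vertical line is 1 peak at its distance from the run's centre (kb), and shading marks the run. The shaded stretch has 30 clone 1 peaks and no clone 2 peak at the top, and 17 clone 2 peaks and no clone 1 peak at the bottom.

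A smaller share of open promoters than of peaks belonged to 1 clone. Of 19974 protein-coding genes, 8174 had a promoter peak in both clones, 2049 in clone 1 only, 719 in clone 2 only and 9032 in neither. The genes of 1 clone were 20.0% of the 10223 genes open in clone 1 and 8.09% of the 8893 open in clone 2. With lists of equal length they were 17.8% (1711 of 9620) and 11.1% (984 of 8893). These shares are the background for the gene lists given further on.

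Genes open in 1 clone mostly had low-scoring promoter peaks. The median score was 5.80 for clone 1-only genes against 7.78 in clone 1 for genes open in both. It was 9.10 for clone 2-only genes against 12.4 in clone 2. Among genes whose promoter peak stood above percentile 75 of its list, 165 of 4608 (3.58%) in clone 1 and 19 of 3100 (0.613%) in clone 2 were open in that clone only. When only peaks above the median score of their list were asked about, the counts of 1-clone genes were 767 and 125. A control promoter peak was present for 81.4% of clone 1-only, 91.0% of clone 2-only and 99.4% of shared genes.

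Genes of 1 clone were unevenly spread over chromosomes. On chromosome 22, 75 of 133 genes open in clone 1 (56.4%) had no promoter peak in clone 2, and on chromosome 17 it was 191 of 429 (44.5%). Chromosome X was the only one of the 23 on which clone 2-only genes, 61, outnumbered clone 1-only genes, 47. As a share of the genes open in clone 2, clone 2-only genes were most frequent on chromosome 22 (20 of 78, 25.6%), followed by X (15.7%) and 17 (14.4%). On chromosome 19, which had the lowest share of clone 2-only peaks, their share was 11.8%, above the 8.09% over all genes.

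Most of the genes with the highest-scoring clone 1-only promoters lay on chromosome 7, and several had promoters of repeated sequence. The first 10 peaks of the naming rule served 13 genes, of which 10 lie on chromosome 7, and 6 of the 13 have a promoter in which more than 50% of 50-base words occur at another annotated start as well. PRR20A on chromosome 13 is a member of a proline-rich gene family whose promoter was repeated over its whole length, and its peak scored 17.7. Over all clone 1-only genes with promoter sequence, 26 of 1607 (1.62%) were repeated in this sense, against 28 of 6918 (0.405%) for genes open in both. Above percentile 75 of clone 1 scores the shares were 7.80% (11 of 141) and 0.422%. How reads that fit several places were treated is not given in the sources used here, and its part in these calls was not tested.

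The 2 other genes among these 13 have promoters without repeats. XBP1 (chr22:28794560-28800569) had a clone 1 peak of score 11.5 at its start, chr22:28800128-28800735, and the nearest clone 2 peak lay 57.6 kb away. CYP4F11, a cytochrome P450 that hydroxylates fatty acids, had a clone 1 peak of score 11.2 with no clone 2 peak within 96.7 kb. Next in order without such shared words came ZNF232 (10.6), a zinc finger gene, and PAN3 (10.2), whose product helps to shorten poly(A) tails. They were followed by GINS2 (10.2) and PPARD (9.98), a nuclear receptor for fatty acids. ZNF232, PAN3, GINS2 and PPARD were named after their values were seen. Each of these promoters also had a control peak.

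The highest-scoring clone 2-only promoters were spread over more chromosomes, and none of the 9 genes with promoter sequence was repeated in the sense above. C11orf97 scored 18.2, RTL8C 17.6 and IL21R, the interleukin-21 receptor gene, 16.6. The IL21R start in the promoter table, chr16:27427271, lies inside the annotated gene, chr16:27402174-27452042, and not at its end. SMIM10L2A followed with 16.4. MMP1, an interstitial collagenase gene, scored 15.99 with a peak at chr11:102798146-102798401. The start shared by KARS1, the lysyl-tRNA synthetase gene, and TERF2IP, which encodes the telomere protein RAP1, scored 15.7.

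RAET1E, which encodes a ligand of the natural killer receptor NKG2D, scored 15.6, ZCCHC10 15.6, SLC22A17 15.4 and GEMIN5, whose product binds small nuclear RNAs, 15.3. The nearest clone 1 peak lay between 4667 bp (SLC22A17) and 79277 bp (GEMIN5) away. All 10 of these clone 2 peaks and all 10 of the clone 1 peaks of the rule had a control peak at the same promoters. The genes just after them in clone 2, named after their values were seen, included PIK3CB (15.2), a catalytic subunit of phosphoinositide 3-kinase, the mitochondrial ribosomal gene MRPL3 (15.1) and ATRX (14.9).

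The gene the clones were made to lack and the checkpoint gene of the series had peaks in both. SMARCAL1 (chr2:216412484-216483053) had a promoter peak of score 13.1 in clone 1 and 13.5 in clone 2, with 8 and 7 peaks within 50 kb of the gene. The promoter peaks stood at the 96.4 percentile of the clone 1 and the 71.0 percentile of the clone 2 list, and scores are not compared between lists. These peaks do not check the knockout, because an open promoter does not show whether the protein is made. CD274 (chr9:5450542-5470554) had promoter peaks of score 9.51 and 19.5 and 4 peaks within 50 kb in each clone. They stood at the 88.5 and 90.2 percentile of their lists.

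The gene lists below hold pathway and marker genes, and each count is of members with a promoter peak in the clone named. The background is 20.0% of genes open in clone 1 that were open there only, and 8.09% in clone 2. The count for any single list is small, and no list was tested.

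Genes of replication fork protection and DNA repair showed no 1-clone promoter. All 28 members open in clone 1 were open in clone 2 and the reverse, and 4 of the 32 members, ZRANB3, ATRIP, FANCA and FANCD2, had a promoter peak in neither. A clone 2 peak of 7.60, but no clone 1 peak, lay within 3000 bp of FANCD2. The shared members included the fork remodeller HLTF (9.28 in clone 1 and 20.1 in clone 2), the checkpoint kinase ATR (8.87 and 15.7), RPA1 (6.77 and 9.38) and BRCA1 (6.15 and 8.97). Cell cycle genes were close to this, with 2 of 23 in clone 1 only, CDK6 (6.94) and the inhibitor gene CDKN1A (5.38), and 0 of 21 in clone 2 only. With equal lengths these counts were 0 of 28 and 2 of 23.

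In the replication licensing list, which holds helicase, clamp loader and polymerase genes, 3 of 25 were open in clone 1 only. They were GINS2 (10.2), the clamp loader subunit RFC2 (6.05) and the polymerase epsilon gene POLE (5.87). The helicase subunit genes MCM5 (9.90) and MCM7 (8.80) were open in clone 2 only, 2 of 24.

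AP-1 factors, leucine zipper proteins that bind DNA as pairs, had 10 of 16 members open in clone 1 and 5 of 16 in clone 2, against 51.2% and 44.5% of all genes. Of 10 members open in clone 1, 6 were not open in clone 2, and with equal lengths 4 of 8. They were FOS (6.82), FOSL2 (6.56), FOSL1 (5.87), MAFF (5.33), BATF2 (5.08) and ATF4 (5.07), the last a factor of the integrated stress response. All of these scores are below the 7.78 median of shared promoters. JUN, the partner of the FOS proteins, was open in both clones (7.85 in clone 1 and 17.3 in clone 2), as were JUND, ATF2 and MAFG. BATF3 (8.47) was open in clone 2 only, and a clone 1 peak of 5.26 lay within 3000 bp of it. For FOSL1 and BATF3 either gene end was searched, since no start was in the table. The same holds for other genes named here, among them IRF3, ZBP1, CGAS, SMARCC2, ATRX, MCM5, FZD2, ZNRF3, AXIN2, HOXC6, MAGEA10, MAGEA1, YWHAZ, SPI1, RTL8C and MMP1.

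Of 21 sensors of foreign or misplaced nucleic acids and their adaptors, 9 were open in both clones and 8 in neither. CGAS, which detects cytosolic DNA, scored 6.86 in clone 1 and 13.2 in clone 2, and IFI16, RIGI and IFIH1 were open in both as well. IRF3 (6.35), the factor these sensors activate, the adaptor MAVS (5.51) and the Z-form nucleic acid sensor ZBP1 (5.05) were 3 of 12 open in clone 1 only, a share near the background. TREX1 (7.36), which degrades DNA in the cytosol, was 1 of 10 open in clone 2 only.

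Of the interferon-stimulated genes 9 of 34 were open in clone 1, against 51.2% of all genes, with MX1 (5.88) and ISG15 (5.66) in clone 1 only. IFI44 (12.0) was 1 of 8 in clone 2 only, but a clone 1 peak of 8.43 lay within 3000 bp of its start. IRF1, a factor that switches on interferon genes, was shared and scored 6.98 in clone 1 and 8.80 in clone 2.

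The NF-kB list had 5 of 16 members in clone 1 only and 0 of 11 in clone 2 only. The 5 were CHUK (8.23), which encodes the kinase IKK alpha, the adaptor TRAF2 (7.73), NFKB2 (6.80), the inhibitor NFKBIA (5.88) and RELA (5.21). Among checkpoint ligands CD274, PDCD1LG2 and CD47 were shared. TNFSF9 (5.52), the 4-1BB ligand gene, NECTIN2 (5.32) and LGALS9 (5.27) were 3 of 6 in clone 1 only, and none was in clone 2 only.

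Nucleosome remodellers had 8 of 24 members in clone 1 only, and 6 of 21 with equal lengths. They were subunits of SWI/SNF or related complexes, SMARCD2 (6.94), PBRM1 (6.25), ARID1B (6.18), BRD7 (6.18), ARID1A (5.65), SMARCC2 (5.18) and SMARCE1 (5.12), together with EP400 (5.69). A clone 2 peak of 7.64 lay within 3000 bp of ARID1B. Their motor subunits SMARCA4 and SMARCA2 were shared, with clone 1 scores of 7.23 and 17.5 and clone 2 scores of 8.60 and 29.7. ATRX (14.9), a SNF2-family protein that deposits histone H3.3 at repeats and telomeres, was the 1 member of 17 in clone 2 only, with its peak at chrX:77786193-77786356 and the nearest clone 1 peak 82.4 kb away.

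Transcription factors of the breast lineage had members open in clone 1 only and others open in clone 2 only. In clone 1 only were 5 of 16, among them XBP1 (11.5), SOX4 (7.85), RUNX2 (5.60) and TFAP2A (5.30). GATA3 (10.3), the progesterone receptor gene PGR (8.21), CEBPB (7.62) and FOXC1 (6.18), a factor of basal-like breast cancer, were 4 of 15 in clone 2 only. Equal lengths gave the same counts, 5 of 16 and 4 of 15. KLF5 (11.2 and 19.7), TBX3 (11.8 and 12.1) and FOXA1 (5.56 and 8.88) were among the 11 shared.

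HOX genes had 6 of 12 members in clone 1 only, but HOXC4, HOXC5 and HOXC6 had the same score of 5.06, and a clone 2 peak of 6.80 lay within 3000 bp of each of these. With equal lengths the count was 3 of 7. Cancer-testis genes, which are normally silent outside the germ line, had 6 of 9 in clone 1 only, among them MAGEA12 and CSAG1 (both 6.52), MAGEA10 (6.27), MAGEA3 (5.97) and MAGEA1 (5.36) on chromosome X. MAGEA4 was shared (6.13 and 10.4). Neither list had a clone 2-only member at full length, while equal lengths gave 2 HOX genes and 1 cancer-testis gene.

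Housekeeping genes were not exempt. Of 23 open in clone 1, 5 were not open in clone 2, including the transferrin receptor gene TFRC (9.19), YWHAZ (7.22), the RNA polymerase II gene POLR2A (6.35) and GAPDH (5.66). A clone 2 peak of 7.29 lay within 3000 bp of YWHAZ. The share of the list is close to the 20.0% background. Genes of the mitochondrial ribosome had 4 of 34 in clone 1 only, led by MRPS24 (9.83), and 3 of 33 in clone 2 only, MRPL3 (15.1), MRPL28 (11.8) and MRPS21 (8.82). With equal lengths these counts were 3 of 31 and 5 of 33.

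The signalling lists had between 2 and 4 clone 1-only members. These were 4 of 18 for WNT (WNT4, FZD2, ZNRF3 and WNT5A), 4 of 16 for growth factor receptors, 3 of 15 for TEAD and YAP targets, 2 of 16 for TGF-beta and 2 of 10 for NOTCH. The NOTCH members were MAML3 (6.22) and NOTCH1 (5.02), and a clone 2 peak of 14.9 lay within 3000 bp of MAML3. With equal lengths the NOTCH count was 1 of 9. In clone 2 only were AXIN2 (8.71), a WNT feedback inhibitor, and the neurotrophin receptor gene NTRK3 (9.92). Glycolysis and hypoxia genes had 3 of 18 and 1 of 16, and neuronal adhesion genes 1 of 13 and 1 of 13.

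**Figure D4:**
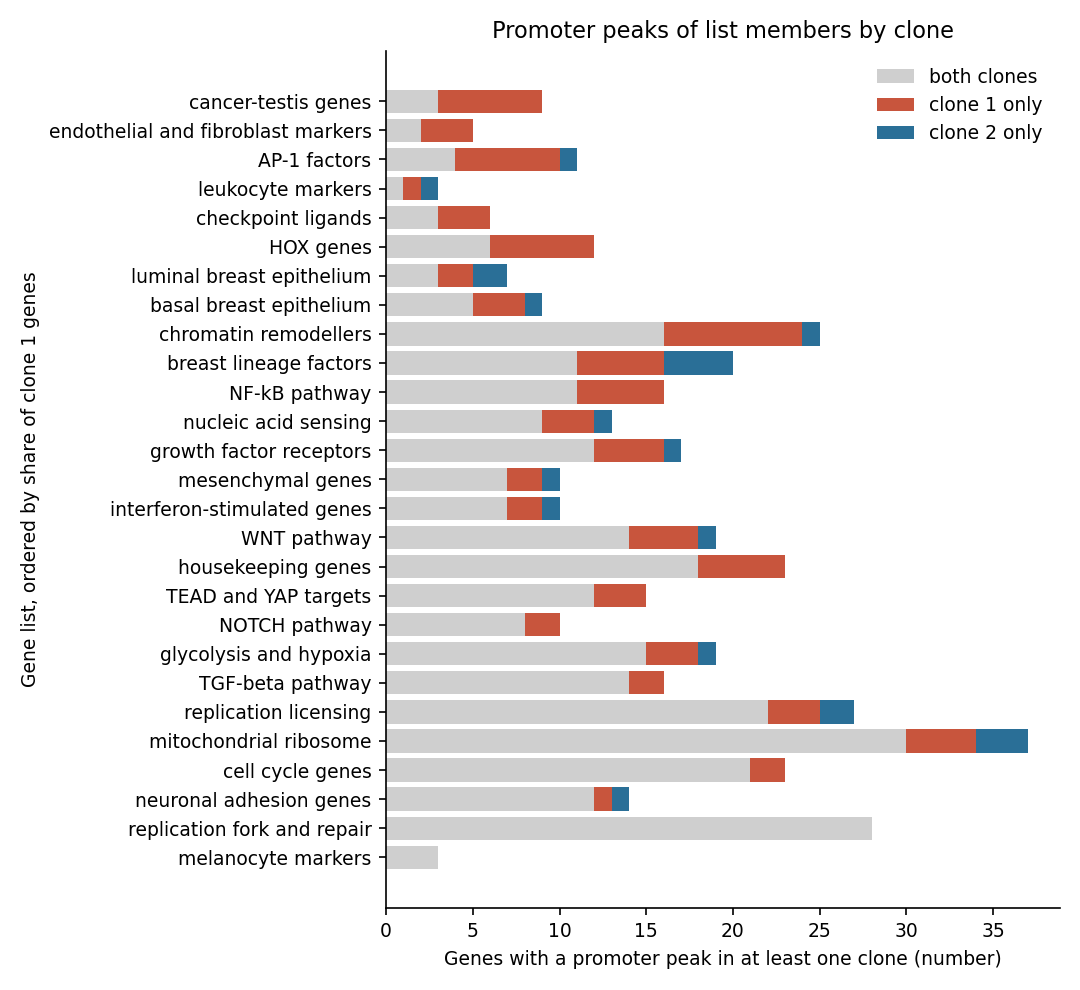
Members of each of 27 gene lists (y axis) with a promoter peak in at least 1 clone, as numbers of genes (x axis). Grey stands for both clones, red for clone 1 only and blue for clone 2 only. Lists are ordered by the share of their clone 1 genes that were open in clone 1 only, from 0 of 28 for replication fork and repair and 0 of 3 for melanocyte markers to 6 of 9 for cancer-testis genes.

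Markers of cell identity were checked as far as open promoters allow, which is not expression. The basal epithelial genes CAV1, CAV2, VIM and EGFR and the epithelial genes EPCAM and CD24 were open in both clones. The keratin genes KRT5, KRT14, KRT8 and KRT18 had a promoter peak in neither, as did 10 of 19 basal and 12 of 19 luminal markers in all. Over all protein-coding genes the share with a promoter peak in neither was 45.2%. Of 20 leukocyte markers 17, PTPRC among them, had none in either clone, while CD14 was open in both, CD8A (6.59) in clone 1 only and SPI1 (11.1) in clone 2 only. Of the basal markers, 3 of 8 were open in clone 1 only, ITGA6 (8.02), LAMB3 (6.65) and CDH3 (5.11), and FOXC1 was 1 of 6 in clone 2 only. Of the luminal markers, 2 of 5 were open in clone 1 only, CDH1 (6.24) and MUC1 (5.21), and 2 of 5 in clone 2 only, GATA3 and PGR. Of 16 endothelial and fibroblast markers 11, PECAM1, CDH5 and VWF among them, had a promoter peak in neither clone. The fibroblast-associated genes PDPN (6.72), ACTA2 (5.60) and FAP (5.25) were 3 of 5 in clone 1 only, and KDR and PDGFRA were open in both. Of the 10 melanocyte markers MITF, DCT and PMEL were open in both clones. Of 20 mesenchymal genes 10 had a promoter peak in neither clone and 7 were shared, SNAI2, TWIST1, CDH2 and FN1 among them. ZEB1 (5.92) and AXL (5.01) were 2 of 9 in clone 1 only, and PRRX1 (9.20) was 1 of 8 in clone 2 only.

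Peaks of 1 clone were also counted in each gene's body and within 10 kb of it, promoter peaks included. Genes were ordered by the number of these peaks and not by their share. Over all peaks in gene bodies outside promoters, 55.4% in clone 1 and 40.7% in clone 2 were absent in the other clone. In clone 1, PTPRN2, a receptor-type phosphatase of secretory granules, had 30 of 35 peaks (85.7%) absent in clone 2, and the clone 2 list had 8 peaks there. DLG2, a synaptic scaffold gene, followed with 22 of 51 (43.1%), and NBPF26 with 19 of 21 (90.5%). CTNND2, which encodes delta-catenin, had 19 of 35 (54.3%), and the cadherin gene CDH12 17 of 27 (63.0%). NKAIN2 had the same 17 of 27.

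In clone 2, DMD, the dystrophin gene, had 13 of 25 peaks (52.0%) absent in clone 1, and CCSER1 12 of 14 (85.7%). CTNNA2, which encodes a neuronal alpha-catenin, had 12 of 27 (44.4%), and FAT3 11 of 11. Longer genes hold more peaks, and these genes span 672 to 2220 kb. DLG2 appeared on both sides, with 11 of 41 clone 2 peaks absent in clone 1.

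The highest-scoring peaks of 1 clone lay largely outside promoters, as did peaks of 1 clone at any score. Of all peaks absent in the other clone, 14.3% in clone 1 and 9.09% in clone 2 were promoter peaks. In clone 1 the first was a promoter peak of LOC124901652 (28.4) and the next a promoter peak of LOC124901647 (27.6). The others lay at chr2:7488659-7489364 (24.6, nearest gene RNF144A at 412 kb), chr1:228620796-228621255 (23.8, RHOU at 23.4 kb) and chr5:1569911-1570330 (22.2, LPCAT1 at 46.0 kb). In clone 2 the first, chrX:148043512-148043762 (27.5), lay 16.8 kb from FMR1NB, and a clone 1 peak was only 462 bp away. It was followed by chr2:183928078-183928335 (26.8), chr4:130712005-130712354 (25.2), chr12:77888678-77888909 (25.2), which lies inside NAV3, and chrX:94961817-94962079 (24.2). Each of these 10 peaks was also on the control list.

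The promoter sequences of the classes were compared over 300 bases, 250 before and 50 after the annotated start, for the 15812 genes in the table. Promoters open in either clone were GC-rich whether or not the other clone shared them. Median GC content was 65.3% for shared, 66.0% for clone 1-only, 65.7% for clone 2-only and 57.3% for promoters open in neither. The ratio of observed to expected CpG, which is low where methylated CpG has been lost over evolution, had medians of 0.854, 0.828, 0.816 and 0.397.

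Promoters with a CpG ratio below 0.5 made up 7.55% of shared, 14.9% (interval 13.2 to 16.7%) of clone 1-only and 15.6% (interval 12.7 to 18.7%) of clone 2-only promoters, and 57.0% of those open in neither. The intervals of the 1-clone classes overlap each other and lie above the shared value.

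**Figure D5:**
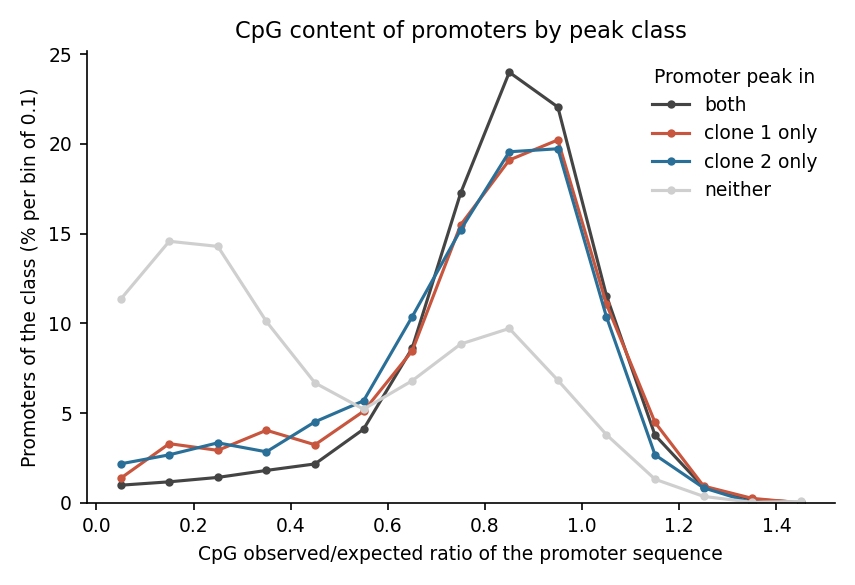
Distribution of the observed to expected CpG ratio of promoter sequences (x axis, bins of 0.1) for promoters open in both clones, 1 clone or neither (lines), as the share of each class per bin (%, y axis). The classes of 1 clone follow the shared class closely with a larger share below 0.5 (14.9% and 15.6% against 7.55%), while promoters open in neither peak at low ratios.

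Short motifs were counted on both strands of the same 300 bases. The letters CCAAT were present in 40.1% of shared, 30.5% of clone 1-only and 35.1% of clone 2-only promoters, against 36.3% of all. The letters TATAAA were in 4.94%, 7.09% and 6.02%, against 9.64% of all. GGGCGG was in 72.4%, 68.0% and 66.7%, against 58.5% of all. The AP-1 word TGANTCA was in 3.80%, 5.04% and 5.52% of these classes and in 5.76% of all promoters, with overlapping intervals for both 1-clone classes. The ETS word CCGGAAG was in 20.0%, 16.9% and 16.9%, against 14.2% of all. These counts describe letters and not bound factors.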

How the data were processed

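ATAC-seq peaks of MDA-MB-436 cells were analysed. The 6 mouse samples of the 14 in the series were not analysed here. HISAT2, MACS2 and ChIPseeker with the builds hg38 and mm10 are named per the submitters' processing notes; no version or setting is given there. The deposited lists give a chromosome, start, end and score for each peak, with replicates merged, per the labels. The deposited score has no header and was read as −log10 of a p-value, because its frequent values match Poisson tail probabilities at whole-number pileups. Positions are printed counted from 1.

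Overlaps, gene classes and sequence counts were computed with Python 3.11.15, pandas 2.3.3, numpy 2.4.6 and scipy 1.17.1, and the overlap code was tested on planted overlaps. Gene positions and promoter sequences came from RefSeq (GRCh38.p14); 15812 of 19974 protein-coding genes had an annotated start, and for the other 4162 both gene ends were used. Of 680 entries on 27 gene lists, 678 matched the gene table. CpG ratio is the number of CG times the length over the product of C and G counts.

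The compared clones, gene lists and rules were chosen with earlier results of these data known. Genes were named by a rule: CD274 and SMARCAL1; per clone the 10 strongest promoter peaks without a peak of the other clone within 3000 bp; list members open in 1 clone; the 5 genes with most 1-clone peaks in the body or within 10 kb; the genes at the 5 highest-scoring 1-clone peaks; and the 3 runs with most peaks. Not every list member is named, and some genes that the rule takes are not reported here. Alternatives changed list length, peak width, score, overlap, promoter window and chromosomes.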

Additional observations from a re-analysis of the deposited data

How the results depend on the processing

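With 1 merged list per clone, leaving out a replicate could not be run, and the part of sequencing depth in the calls was not tested. No paired analysis was possible because the replicates were merged before deposit. The share of clone 1 peaks absent in clone 2, 46.7% as reported, was 42.3% at equal list length, 51.7% with both lists set to 200 bp, 24.0% above the median score, 77.3% with at least 50% overlap, 44.9% when a peak within 500 bp also counted, 45.9% on primary chromosomes and 19.6% among recognisable mean scores. The share of clone 2 peaks absent in clone 1, 31.5% as reported, was 34.9%, 43.8%, 18.7%, 32.0%, 30.0% and 17.8% under the same settings in that order, leaving out primary chromosomes, where it was 31.4%, inside the interval of the reported value. The clone 1 share was the higher of the pair under every one of these settings. The promoter share of absent peaks, clone 1 minus clone 2, 5.23 points as reported, was 4.06 at equal length, 12.9 above the median score, 17.1 with at least 50% overlap, 22.2 among recognisable mean scores, 4.09 and 6.36 with promoter windows of 500 and 3000 bp and 7.81 with equal weight for each score decile. It turned to -6.79 with both lists set to 200 bp, and the cause was not tested. The counts of clone 1-only and clone 2-only genes, 2049 and 719, stayed within 1.5 times under equal length, 200 bp peaks, both promoter windows, absence within 3000 bp of the start and annotated starts only (1607 and 598), and moved to 767 and 125 above the median score, where fewer peaks are asked about. Recognisable mean scores and annotated starts only were chosen after seeing the data.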
